A study of Mus musculus with 32 samples.

Results

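The nuclear genes for the subunits of respiratory chain complexes I to IV were examined in mouse cells between pluripotent and germ cell states. They were chosen by symbol: a gene belonged to the set if a probe set of the array carried a single symbol of the families Nduf (complex I), Sdh (complex II), Uqcr (complex III) or Cox4 to Cox8 (complex IV). This gave 63 of 18193 genes, with 132 probe sets between them, and each gene was represented by its brightest probe set. By symbol, complex I contributed 34 genes, complex II 4, complex III 8 and complex IV 17. Ndufa4 is counted with complex I, for which it was named, although it has since been assigned to complex IV. Cox7a2l is counted with complex IV, although it is a factor that joins complexes into supercomplexes. All but 1 of the 63 passed the filter on dim genes and were tested; Cox8b did not.

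The respiratory chain sits in the inner mitochondrial membrane and passes electrons from NADH (through complex I) and succinate (through complex II, which is also an enzyme of the tricarboxylic acid cycle) to complex III, cytochrome c and, in complex IV, oxygen. Complexes I, III and IV pump protons as they do so, and ATP synthase uses the resulting gradient. Most subunits are made from nuclear genes that every cell type uses, while several complex IV subunits come in tissue isoforms, such as those of heart and muscle or of testis. Naive embryonic stem cells use both respiration and glycolysis, and primed cells of the epiblast type are known for leaning on glycolysis.

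The 32 arrays formed 16 groups of 2, which the design calls biological duplicates. Separate cultures are not named, and a p-value here reflects array-to-array spread that may be partly technical. In the new part of the series (22 arrays, 11 groups, male cells of a mixed background that includes C57BL/6) every cell carried the reporters Blimp1-mVenus and stella-ECFP and Rosa26-rtTA, which lets doxycycline switch on a transgene behind a tetO promoter. BP14A cells at days 2 and 4 carried piggyBac transgenes for Blimp1, Prdm14 and Tfap2c, BP14 cells at day 2 those for Blimp1 and Prdm14, P14A cells at day 2 those for Prdm14 and Tfap2c, and P14 cells at day 2 that for Prdm14. They were induced as primordial germ cell-like cells (PGCLCs) from aggregates of 2000 epiblast-like cells (EpiLCs) per well with doxycycline at 1.5 µg/ml. Cytokine-induced PGCLCs (Ck-PGCLCs) at days 2 and 4 came from the parental clone without factor transgenes and received BMP4 and BMP8A (500 ng/ml each), EGF (50 ng/ml) and SCF (100 ng/ml), with LIF at 1000 U/ml. Parental +Dox cells at day 2 had doxycycline and no factor transgene, and EpiLCs of the parental clone were taken after 36 h. BP14A embryonic stem cells (ESCs) were kept in 2i+LIF, and BP14A ESC +Dox cells at day 2 were sorted for stella-ECFP. Factor-carrying cells therefore differ from parental cells in clone as well as in treatment. The earlier part (10 arrays, 5 groups, C57BL/6) held ESCs in 2i+LIF (2i ESCs), EpiLCs after 48 h and Ck-PGCLCs at day 6, all male with the 2 reporters, the epiblast of embryonic day 5.5 (E5.5) with no transgene named, and stella-EGFP primordial germ cells (PGCs) of E9.5; the sex of both embryonic groups is given as unknown.

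Labels were checked on marker genes. The mean level of 6 naive markers was at most 6.65 on each EpiLC and epiblast array, against at least 10.81 on each array of ESCs without doxycycline, all on the log2 scale used throughout. The mean of 8 germ cell markers lay between 9.41 and 10.90 on the arrays of factor-induced cells, Ck-PGCLCs at days 4 and 6 and PGCs. This list includes Prdm1, Prdm14 and Tfap2c, the genes of the transgenes. It also read 9.36 and 9.37 in BP14A ESC +Dox cells and 8.60 to 8.80 in the other ESCs, above Ck-PGCLCs at day 2 at 7.78 and 7.87, so it does not tell germ cells from ESCs. Parental +Dox cells gave 5.35 and 5.39, and 36 h EpiLCs 6.05 and 6.13. The PGC arrays also carried a mean of 10.54 and 9.30 over 4 markers of red blood cells, against 4.10 to 4.84 in the epiblast.

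The earlier arrays carry a spread that the groups do not account for. The median subunit gene had a replicate SD of 0.31 there, against 0.22 for all genes, and of 0.08 on the new arrays, against 0.16. In all 5 earlier groups, the median over subunit genes was higher on the array numbered 1 than on that numbered 2, by 0.20 to 0.58, and the same held for complexes I, III and IV on their own. Complex II ran the other way in all 5 groups, higher on array 2 by 0.37 to 0.49. On the new arrays the number 1 array was higher in 8 of 11 groups. Differences were tested with limma in 1 fit of all 32 arrays, which shares 1 spread per gene between both parts, and called at a Benjamini-Hochberg adjusted p under 0.05. With the new arrays fitted alone, the 16 comparisons among them gave 73 calls in place of 39. With the earlier arrays fitted alone, the 7 among them gave 2 calls in place of 28, and only 1 of the 28, Uqcrc1 in PGCs against 2i ESCs, was kept. With a term for the array number in the fit of all 32 arrays, the same 7 gave 67 calls and all 28 were kept. The earlier calls thus depend on how this spread is modelled.

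**Figure D1:**
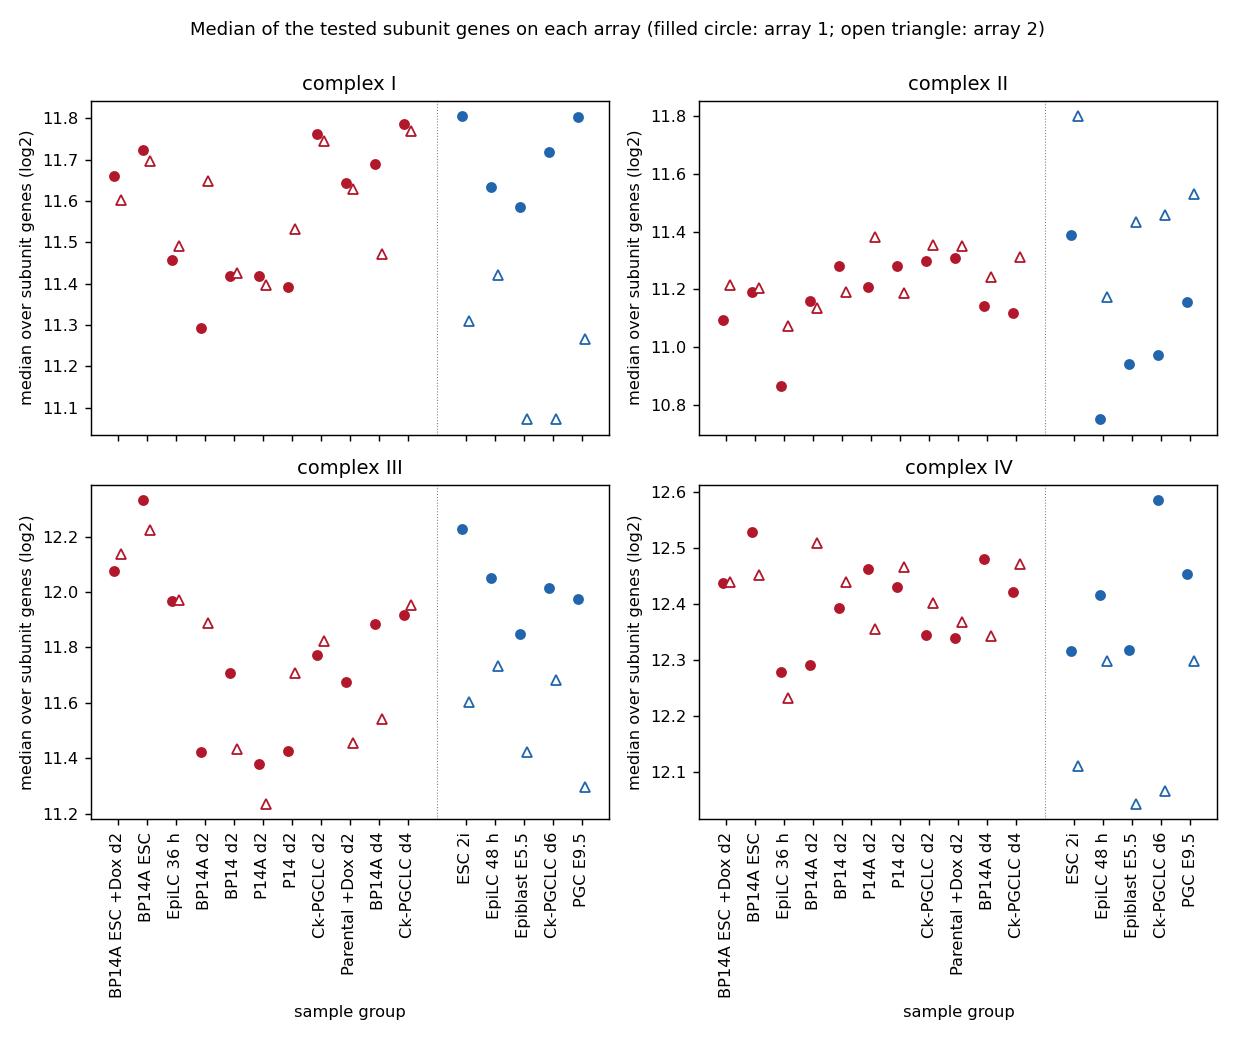
Symbols give the median log2 value over the tested subunit genes of complexes I, II, III and IV on each array, by group (filled circle, array 1; open triangle, array 2; red, new arrays; blue, earlier arrays). In the 5 earlier groups the circle lies above the triangle for complexes I, III and IV and below it for complex II.

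RNA quality differed as well. The Gapdh 5′ minus 3′ difference, in which low values mark cDNA that stops short of the 5′ end, was under -2.5 on 6 arrays: both of BP14A cells at day 4 (-4.66 and -2.99) and 1 each of BP14 cells (-4.07), BP14A ESC +Dox cells (-3.13), 36 h EpiLCs (-3.03) and BP14A ESCs (-2.82). Without them, in a fit chosen after seeing the data, 7 of 27 calls remained in the 7 comparisons that held such an array and could still be made. These were Cox7b2 in 4 groups and Cox5a, Sdhc and Cox7c in 1 each, all against 36 h EpiLCs. The 20 calls lost kept their sign and 63.7% to 116% of their size (median 100%), in a fit with fewer arrays. The part of RNA quality in the losses was not tested. Of all 67 calls, 13 held with each array left out in turn; they are named as such, and each other call was lost in at least 1 of its 4 fits without an array.

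Most subunit genes read bright, and their group means spanned less than those of the median gene tested. Means over all arrays were above 10 for 54 of 63 genes, against 12.9% of all genes; the signals of different probe sets are not on 1 scale of abundance, so these means do not rank the subunits. For 11 of the 63 the mean lay above 12.52, the 99th percentile of all genes, where the highest normalized value was 13.86. The part of signal compression at the bright end in the ranges and counts that follow was not tested. The median subunit gene of an array lay between 11.17 and 11.84. The range of the group means was 0.58 for the median subunit gene among the new groups, against 1.12 for the median gene tested, and 0.49 against 0.93 among the earlier groups. The range exceeded 1, a 2-fold span, for 8 of the 62 tested subunit genes among the new groups (57.8% of all genes tested) and for 4 among the earlier groups (46.4%). A test for any difference, limma's moderated F test at an adjusted p under 0.05, called 7 of 62 subunit genes among the new groups, against 50.6% of all genes tested. These were Cox5a, Cox7a1, Cox7b2, Cox7c, Cox8c, Sdhb and Sdhc, that is, 5 genes of complex IV and 2 of complex II. The same test called 12 of 62 among the earlier groups, against 50.9% of all genes. Cox7a1 and Cox8c were called in both.

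**Figure D2:**
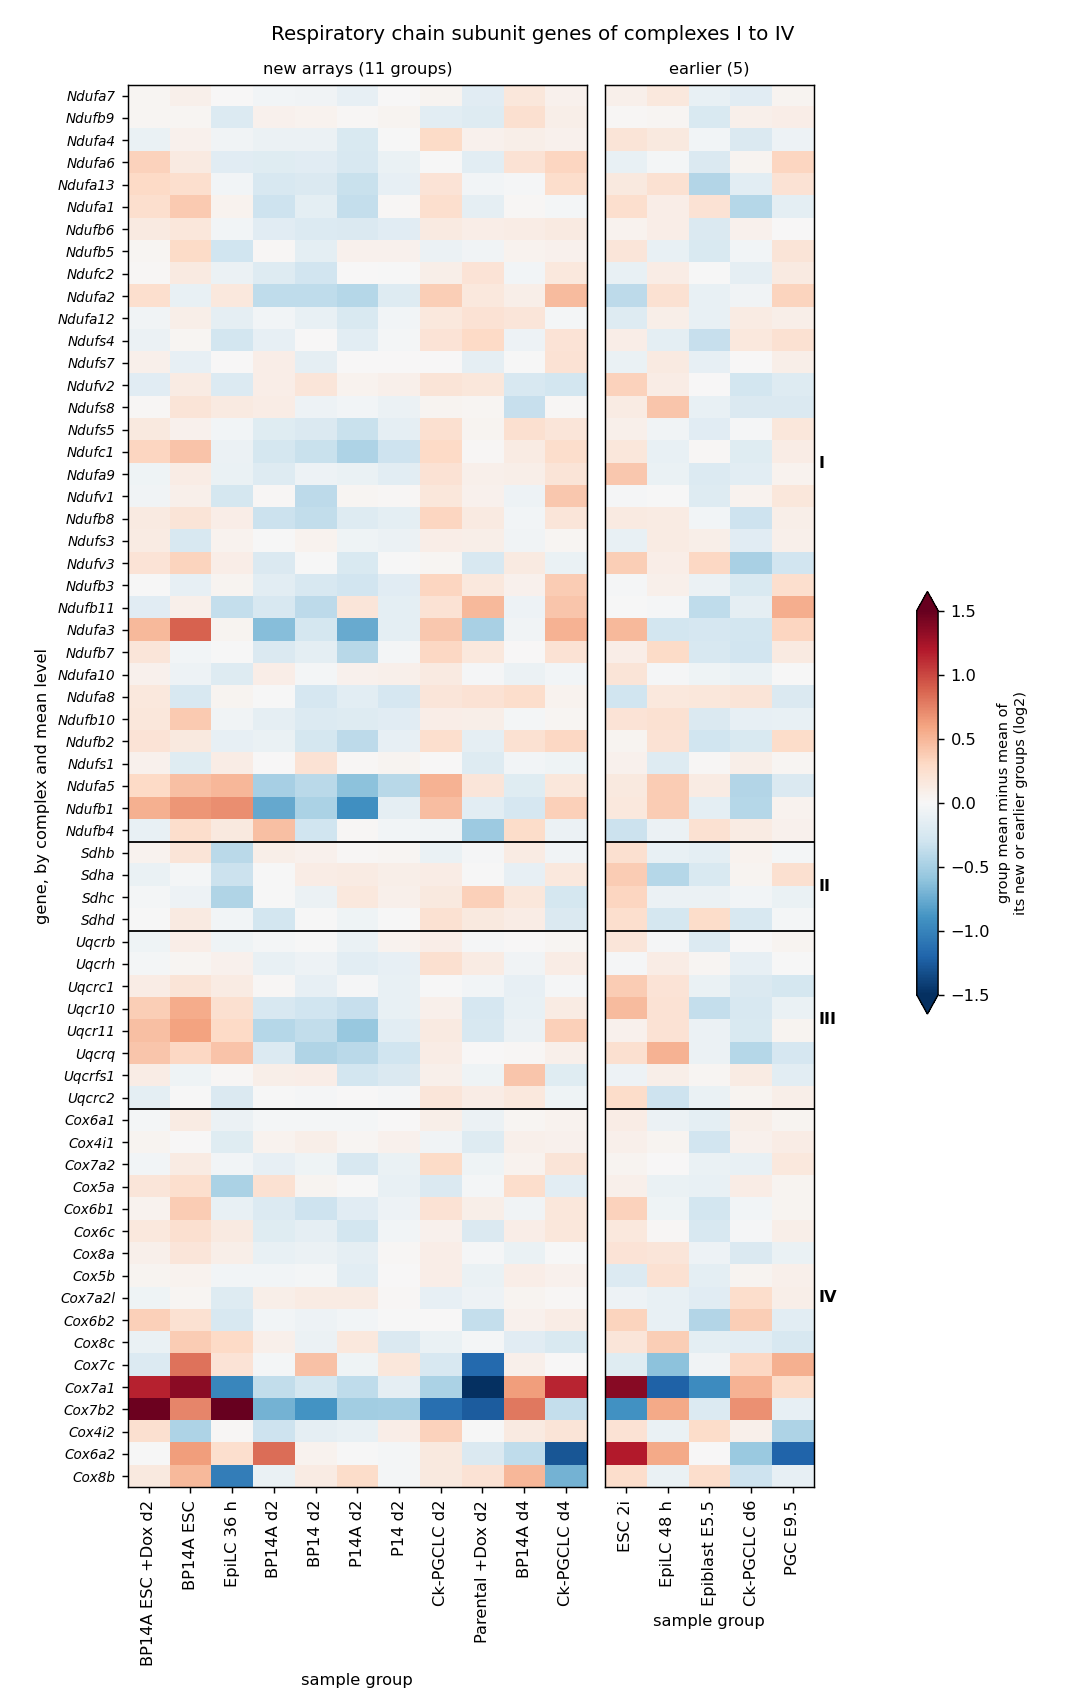
Each cell is the mean of a group's 2 arrays minus the mean of all groups of the same part of the series (log2; red higher, blue lower; the scale ends at 1.5 in each direction), for the 63 subunit genes (rows, by complex and then by mean level) and the 16 groups (columns, new arrays left, earlier arrays right). Most rows are pale, and the strongest colours lie among the complex IV genes of lowest mean at the bottom, such as Cox7b2 and Cox7a1.

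Across 23 comparisons of 2 groups, 67 of 1426 differences of subunit genes were called at an adjusted p under 0.05. Of the 62 genes, 39 were called in no comparison (28.8% of all genes tested), and 23 in at least 1 (71.2%). The share of subunit genes called was below the share of all genes called in each of the 23 comparisons, as in all 207 values under other settings and all 108 values with 1 array left out. The standard error (SE) of a difference was 0.24 for the median subunit gene and 0.27 for the median gene tested. The 95% interval of the difference lay within 2-fold in both directions for 38 to 48 of the 62 genes, depending on the comparison. Over all genes tested, this share ran from 42.5% to 61.4%. For the other subunit genes the interval reached or passed 2-fold in at least 1 direction. The arrays hold RNA of mixed or sorted cell populations, so fewer cells of a type and less RNA per cell cannot be told apart.

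**Figure D3:**
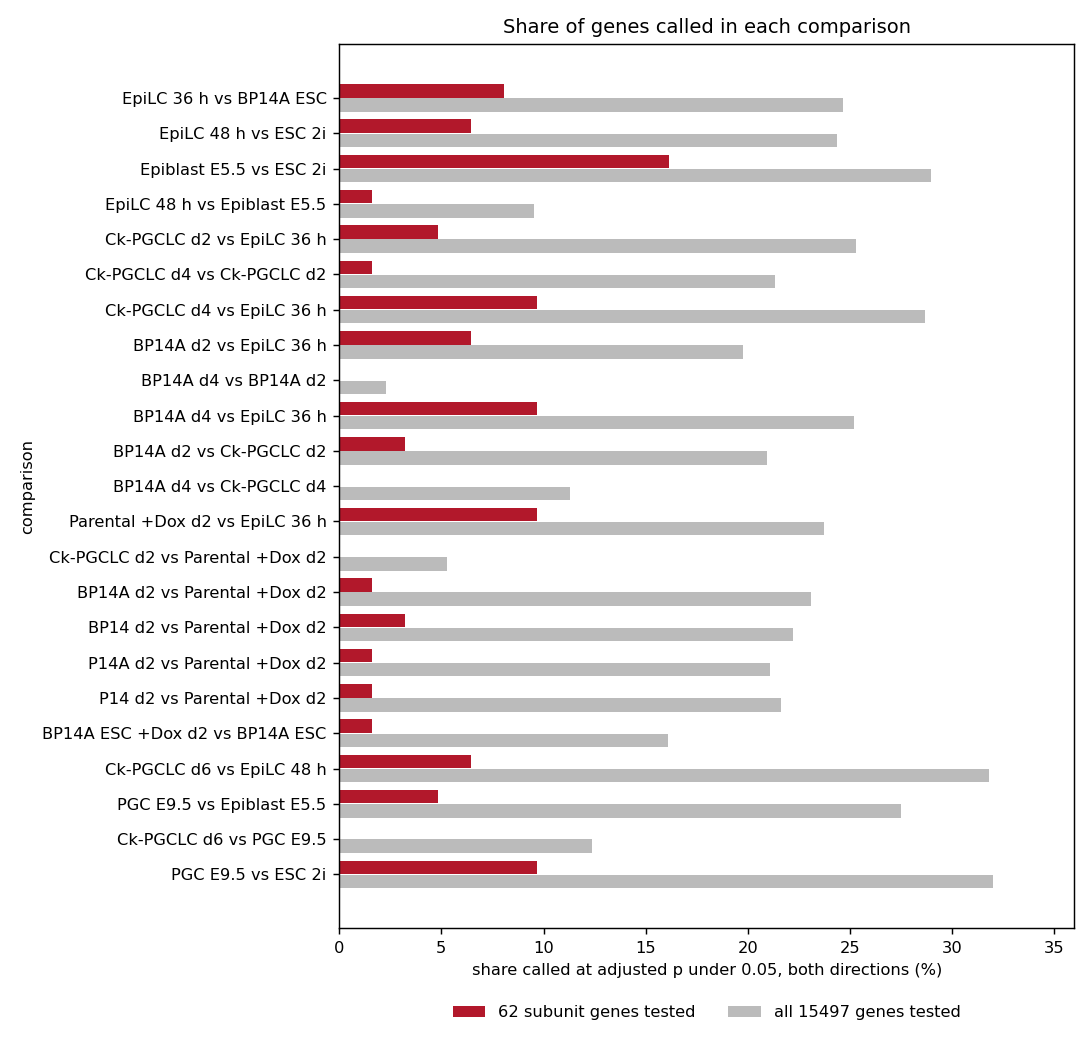
Bars give the percentage of the 62 tested subunit genes (red) and of all 15497 tested genes (grey) called at an adjusted p under 0.05 in either direction, for each of the 23 comparisons. The red bar is shorter than the grey bar in every comparison.

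The windows upstream of the genes whose calls carry the following account are shown first, with Cox7a2 beside its muscle isoform Cox7a1. Each runs 5′ to 3′ from 250 bases before to 30 bases after the gene's start, from RefSeq on build GRCm38.p6, with Cox7a1 at chr7:30183921-30184200 on the plus strand, Cox7a2 at chr9:79759824-79760103 on the minus strand, Cox7b2 at chr5:71548176-71548455 on the minus strand, Cox5a at chr9:57520982-57521261 on the plus strand, Sdhb at chr4:140961021-140961300 on the plus strand and Uqcrc1 at chr9:108936398-108936677 on the plus strand. Capitals mark a match on either strand to 1 of 5 motifs, named NRF1, ETS, YY1, ESRR and TATA, whose letters are given after the sequences.
Cox7a1: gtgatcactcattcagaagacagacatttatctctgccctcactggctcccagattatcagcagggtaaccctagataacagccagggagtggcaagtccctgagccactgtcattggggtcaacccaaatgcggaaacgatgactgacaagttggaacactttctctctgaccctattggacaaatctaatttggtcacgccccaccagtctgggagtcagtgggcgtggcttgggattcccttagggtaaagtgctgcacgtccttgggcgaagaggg
Cox7a2: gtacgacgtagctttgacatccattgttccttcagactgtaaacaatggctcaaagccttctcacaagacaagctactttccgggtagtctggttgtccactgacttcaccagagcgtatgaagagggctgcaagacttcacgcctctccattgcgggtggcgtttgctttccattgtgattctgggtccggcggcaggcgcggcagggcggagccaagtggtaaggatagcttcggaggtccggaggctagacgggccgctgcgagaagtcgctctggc
Cox7b2: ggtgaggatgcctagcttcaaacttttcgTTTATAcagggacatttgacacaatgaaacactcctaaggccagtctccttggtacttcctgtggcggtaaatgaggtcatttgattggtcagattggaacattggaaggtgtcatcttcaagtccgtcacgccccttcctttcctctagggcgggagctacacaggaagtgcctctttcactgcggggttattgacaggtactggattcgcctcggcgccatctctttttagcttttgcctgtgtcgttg
Cox5a: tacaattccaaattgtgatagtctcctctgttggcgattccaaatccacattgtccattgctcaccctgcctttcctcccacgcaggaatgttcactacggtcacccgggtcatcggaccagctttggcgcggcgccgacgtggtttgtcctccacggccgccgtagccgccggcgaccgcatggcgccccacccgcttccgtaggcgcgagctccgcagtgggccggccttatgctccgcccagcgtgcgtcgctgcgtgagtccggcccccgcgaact
Sdhb: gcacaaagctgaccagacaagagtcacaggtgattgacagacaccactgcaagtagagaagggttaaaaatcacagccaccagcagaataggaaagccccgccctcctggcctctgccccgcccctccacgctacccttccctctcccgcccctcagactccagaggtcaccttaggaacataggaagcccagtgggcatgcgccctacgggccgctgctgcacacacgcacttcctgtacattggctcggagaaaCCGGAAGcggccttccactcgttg
Uqcrc1: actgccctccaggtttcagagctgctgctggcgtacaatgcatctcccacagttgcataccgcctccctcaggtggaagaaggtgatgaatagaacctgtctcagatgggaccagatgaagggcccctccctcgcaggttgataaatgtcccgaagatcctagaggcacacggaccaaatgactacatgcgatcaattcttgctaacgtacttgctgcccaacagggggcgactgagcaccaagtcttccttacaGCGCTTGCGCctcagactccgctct

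RefSeq windows were available for 51 of the 63 genes, 53 windows in all, and Sdhc and Cox8c were among the others. Over windows of 300 bases, the NRF1 letters, which are those in capitals in Uqcrc1 with any base at the fifth place, stood in 18.9% of the windows of subunit genes and in 4.6% of all 32851 windows. The ETS letters, searched as CCGGAAG, stood in 20.8% of subunit windows against 8.86% of all windows. The letters AAGATGGC of YY1 were in 11.3% against 2.75%. For ESRR, a family of oestrogen-related receptors, the letters AAGGTCA were in 7.55% against 4.72%. The TATA box, as TATAAA, was in 13.2% against 13.6%, and its match in Cox7b2 lies on the reverse strand. Among the windows printed, Sdhb held the ETS letters, Uqcrc1 the NRF1 letters and Cox7b2 the TATA letters. A match says only that the letters are there.

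Sdha, Sdhb and Sdhc of complex II read lowest in 36 h EpiLCs among the new groups. Sdhd, with a mean of 10.89 there, did not. This low was not particular to complex II. Genes of other complexes also had their lowest new group mean in these EpiLCs, such as Ndufb5 (11.635), Ndufs4 (11.41), Uqcrc2 (10.99), Cox7a2l (12.09) and Cox5a (12.42). In complex II, 3 of 4 genes were called in at least 1 comparison, close to the 71.2% of all genes tested. Its enzyme oxidises succinate: Sdha is the flavoprotein, Sdhb the iron-sulfur subunit, and Sdhc and Sdhd anchor both in the membrane. Sdhb read 11.50 and 11.44 in 36 h EpiLCs, against 12.10 and 12.05 in BP14A ESCs. These 2 EpiLC values were the lowest of the 22 new arrays. The difference was -0.60 (SE 0.13, adjusted p = 0.00167) and held with each array left out. Sdhc read 10.44 and 10.54 in the same EpiLCs, again the lowest 2 of the new arrays, against 10.82 and 10.90 in BP14A ESCs; that difference did not pass the test. Sdha read 11.02 and 11.07 in these EpiLCs, also the lowest 2 of the new arrays, against a mean of 11.33 in BP14A ESCs. It was called in no comparison among the new arrays. After EpiLCs, Sdhb and Sdhc were higher again in several groups. Sdhc read 11.25 and 11.35 in parental +Dox cells, a rise of 0.81 over EpiLCs (SE 0.15, adjusted p = 0.000567) that held with each array left out and under each other setting. It rose by 0.60 in Ck-PGCLCs at day 2 (adjusted p = 0.00644), by 0.44 in BP14A cells at day 2 (adjusted p = 0.0489) and by 0.62 in BP14A cells at day 4 (adjusted p = 0.00499). Both Sdhc probe sets moved alike in parental +Dox cells, by 0.81 and 0.93. With the mean of both, the Sdhc rises in Ck-PGCLCs and in BP14A cells were not called. The Sdhc rise in BP14A cells at day 2 was also lost with any 1 of the 4 arrays left out. Sdhb rose over EpiLCs by 0.50 in BP14A cells at day 2 (adjusted p = 0.00999), 0.53 at day 4 (adjusted p = 0.00549), 0.40 in parental +Dox cells (adjusted p = 0.0338) and 0.36 in Ck-PGCLCs at day 4 (adjusted p = 0.0474). The Sdhb calls in parental +Dox cells and in Ck-PGCLCs were lost with any 1 of the 4 arrays left out. That in Ck-PGCLCs was also lost on the deposited values, with median centring and without a filter. Sdhd, on the same arrays, was called in no comparison. These comparisons share the EpiLC arrays, so the rises are not independent of each other.

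In the earlier arrays 3 of the complex II genes were called lower than in 2i ESCs, each in 1 or 2 groups, and Sdhd in none. Sdha read 10.79 and 11.28 in 48 h EpiLCs and 11.07 and 11.40 in the E5.5 epiblast, against 11.60 and 12.09 in 2i ESCs. The highest epiblast and EpiLC values lay below the lowest ESC value. Sdha fell by 0.81 in EpiLCs (SE 0.22, adjusted p = 0.00886) and by 0.61 in the epiblast (SE 0.22, adjusted p = 0.0401). Sdhb fell by 0.38 in the epiblast (adjusted p = 0.0359). In E9.5 PGCs, Sdhc read 10.83 and 10.91, against 11.17 and 11.42 in 2i ESCs, a fall of 0.43 (adjusted p = 0.0393). With the mean of all probe sets in place of the brightest, Sdha gave -0.29 in EpiLCs and -0.28 in the epiblast, and neither was called. Without array 2 of 2i ESCs, Sdha gave -0.37 in the epiblast (adjusted p = 0.351). None of these 4 calls held when only the 10 earlier arrays were fitted.

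**Figure D4:**
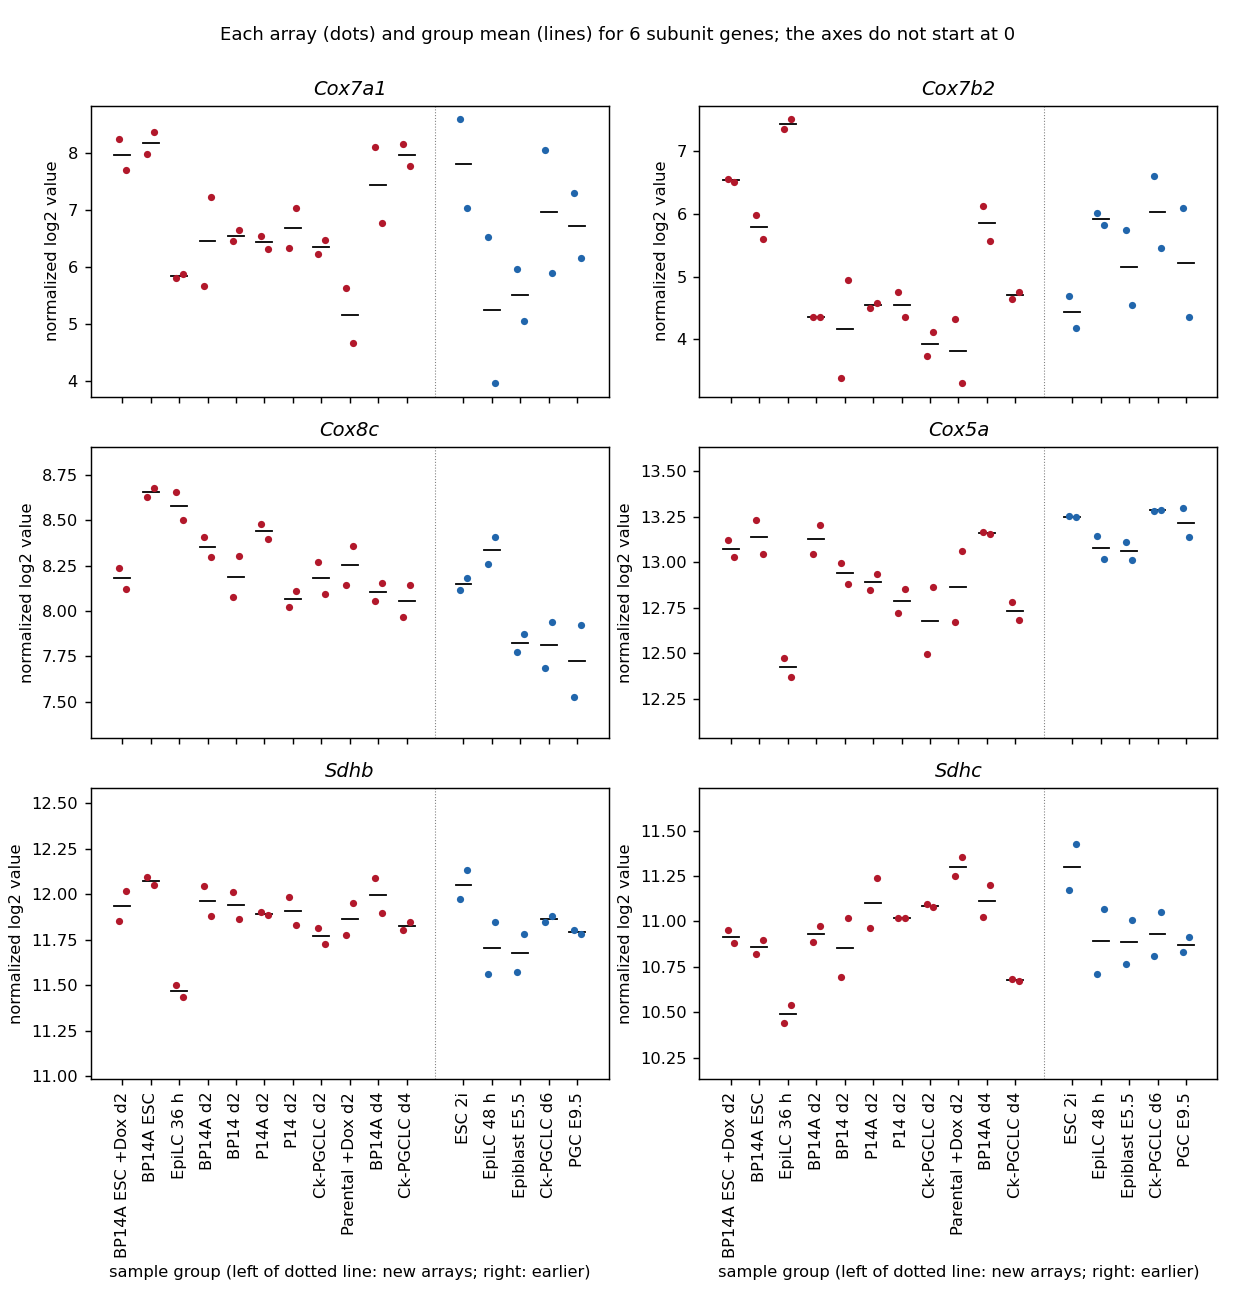
Dots are the normalized log2 values of the single arrays and lines the group means, for Cox7a1, Cox7b2, Cox8c, Cox5a, Sdhb and Sdhc in all 16 groups (red, new arrays; blue, earlier arrays; axes do not start at 0). The 36 h EpiLC dots are the lowest new ones for Cox5a, Sdhb and Sdhc and the highest for Cox7b2.

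Complex IV, cytochrome c oxidase, held 4 of the 8 tested subunit genes whose group means spanned more than 1 among the new groups, namely Cox7b2, Cox7a1, Cox6a2 and Cox7c. The others were Ndufa3, Ndufb1, Uqcr11 and Ndufa5, and these were called in no comparison. Among the earlier groups the 4 genes past that span were the same 4 of complex IV. Cox7b2, a testis isoform of a small subunit, read 7.36 and 7.51 in 36 h EpiLCs, against 5.98 and 5.60 in BP14A ESCs. Both EpiLC values were above all other arrays of the series. The rise was 1.64 (SE 0.53, adjusted p = 0.0289), and was lost with any 1 of the 4 arrays left out (adjusted p up to 0.158). At day 2 of induction it read 4.35 and 4.35 in BP14A cells, 3.73 and 4.12 in Ck-PGCLCs, and 4.33 and 3.30 in parental +Dox cells. Relative to EpiLCs it fell by 3.08 (SE 0.53, adjusted p = 0.000275) in BP14A cells, 3.51 (adjusted p = 5.19e-05) in Ck-PGCLCs and 3.62 (adjusted p = 4.38e-05) in parental +Dox cells. It was still lower at day 4, by 1.58 in BP14A cells (adjusted p = 0.0346) and by 2.73 in Ck-PGCLCs (adjusted p = 0.00056). Values under 4.05 were treated as dim, so folds against the lowest groups are imprecise. The calls at day 2 and that of Ck-PGCLCs at day 4 held under every setting and with each array left out. In the earlier arrays Cox7b2 read 6.01 and 5.82 in 48 h EpiLCs, against 4.69 and 4.18 in 2i ESCs, a difference of the same sign that was not called.

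Cox7a1, the isoform of heart and muscle, went the other way. It read 5.80 and 5.88 in 36 h EpiLCs, against 7.99 and 8.37 in BP14A ESCs, and fell by 2.34 (SE 0.78, adjusted p = 0.0331), a call lost with any 1 of the 4 arrays left out (adjusted p up to 0.153). In the earlier arrays it read 6.53 and 3.96 in 48 h EpiLCs and 5.96 and 5.05 in the epiblast, against 8.60 and 7.03 in 2i ESCs. The groups did not overlap in either case. The falls were 2.57 (adjusted p = 0.0195) in EpiLCs and 2.31 (adjusted p = 0.0304) in the epiblast. In Ck-PGCLCs at day 4 it read 8.16 and 7.78 and rose by 2.12 over 36 h EpiLCs (adjusted p = 0.0469). That call was lost without a filter and with any 1 of the 4 arrays left out, where the difference ran from 1.94 to 2.31. The epiblast difference was -1.52 without array 1 of 2i ESCs (adjusted p = 0.283), and that of 48 h EpiLCs ran from -1.28 without their array 2 to -3.86 without their array 1. The single arrays of BP14A cells at day 4 were further apart, at 8.11 and 6.78, and the difference from EpiLCs was not called. Its counterpart in other tissues, Cox7a2, read between 12.37 and 13.32 on all arrays and was called in no comparison. The mean level of 4 muscle markers was 5.38 and 5.47 in 36 h EpiLCs, against 4.00 and 4.26 in BP14A ESCs. The markers did not move as one: Myh6 averaged 6.81 in EpiLCs and 2.37 in ESCs, Actc1 5.10 and 4.22, Ckm 5.58 and 5.36, and Tnnt2 4.22 and 4.58.

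Cox5a, a subunit of complex IV used in all tissues, was called lower in 36 h EpiLCs than in BP14A ESCs, as Sdhb was. It read 12.47 and 12.37 in 36 h EpiLCs, against 13.23 and 13.04 in BP14A ESCs. The EpiLC values were the lowest of the new arrays, with 1 Ck-PGCLC array of day 2 next at 12.50. The fall was 0.72 (SE 0.14, adjusted p = 0.000797) and held with each array left out, and the gene's other probe sets gave -0.77 and -0.56. Cox5a then rose over EpiLCs by 0.70 in BP14A cells at day 2 (adjusted p = 0.00126), by 0.74 at day 4 (adjusted p = 0.000693) and by 0.44 in parental +Dox cells (adjusted p = 0.0292). The calls in BP14A cells held under every setting that could be fitted and with each array left out. BP14A cells at day 2 were also higher than Ck-PGCLCs of that day, at 13.05 and 13.20 against 12.50 and 12.86, by 0.45 (SE 0.14, adjusted p = 0.0309). Without array 1 of Ck-PGCLCs that difference was 0.26 (adjusted p = 0.36), and the rise in parental +Dox cells was 0.25 without their array 2 (adjusted p = 0.349). In the earlier arrays Cox5a read 13.14 and 13.02 in 48 h EpiLCs, against 13.25 and 13.25 in 2i ESCs, a difference that was not called.

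Cox8c and Cox6b2 are testis isoforms. Cox8c was called in 6 comparisons, with differences of 0.43 to 0.52 in size. It read 8.24 and 8.12 in BP14A ESC +Dox cells, against 8.63 and 8.68 in BP14A ESCs, and fell by 0.47 (SE 0.15, adjusted p = 0.0309). It fell relative to EpiLCs by 0.52 in Ck-PGCLCs at day 4 (adjusted p = 0.0102), by 0.47 in BP14A cells at day 4 (adjusted p = 0.0217) and, in the earlier arrays, by 0.52 in Ck-PGCLCs at day 6 (adjusted p = 0.00913). All 6 calls were lost on the deposited values, and all 6 with the mean of both probe sets. The second Cox8c probe set, with a mean of 4.98, gave a difference of -0.0048 for Ck-PGCLCs at day 4 against 36 h EpiLCs. Cox6b2 read 10.38 and 10.72 in the epiblast, against 11.63 and 11.02 in 2i ESCs, and fell by 0.77 (adjusted p = 0.0188); without array 1 of 2i ESCs the difference was -0.46 (adjusted p = 0.262). Of the other tissue isoforms, Cox4i2 of lung and Cox6a2 of heart and muscle had means of 4.34 and 4.05, close to the filter, and Cox8b 3.08. Cox6a2 was called once: it read 2.18 and 2.52 in E9.5 PGCs, both dim, against 4.59 and 4.89 in 2i ESCs. The log2 difference was -2.39 (adjusted p = 0.0397), and -1.34 with the mean of its probe sets (adjusted p = 0.0507).

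Cox7c, a subunit of complex IV used in all tissues, set the parental +Dox cells apart. The factor-induced cells of day 2 read 7.86 and 6.73 (BP14A), 8.04 and 7.48 (BP14), 7.52 and 7.01 (P14A) and 7.98 and 7.01 (P14), against 6.28 and 6.03 in parental +Dox cells. The parental +Dox values were the lowest 2 of the series, so no group overlapped with them. Cox7c rose over them by 1.14 in BP14A cells (SE 0.36, adjusted p = 0.0254), 1.61 in BP14 cells (adjusted p = 0.00252), 1.11 in P14A cells (adjusted p = 0.0323) and 1.34 in P14 cells (adjusted p = 0.00955). The BP14 call held with each array left out. Without the array numbered 1, the difference was 0.57 in BP14A cells (adjusted p = 0.394) and 0.86 in P14 cells (adjusted p = 0.202). Parental +Dox cells were also lower than 36 h EpiLCs, which read 7.14 and 7.92, by a log2 difference of -1.38 (adjusted p = 0.00808). Ck-PGCLCs of day 2, at 7.24 and 6.93, were not called against parental +Dox cells. The probe sets of Cox7c have means of 7.38 and 6.24 and gave -1.38 and -0.95 for parental +Dox cells against EpiLCs. Parental +Dox cells also carried a mean of 8.45 and 9.0 over 4 mesoderm markers, against 2.56 to 3.15 in the 4 groups of factor-induced cells at day 2; the part of such cells in the Cox7c result was not tested.

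Complex I is the NADH dehydrogenase. Of its 34 genes, 8 were called in at least 1 comparison, against 71.2% of all genes tested, and all by less than 2-fold. Ndufs4, an accessory subunit that stabilises the NADH-oxidising module, read 11.97 and 11.82 in Ck-PGCLCs at day 2, 11.86 and 11.92 at day 4, and 12.01 and 11.96 in parental +Dox cells, against 11.45 and 11.38 in 36 h EpiLCs. It rose over EpiLCs by 0.48 in Ck-PGCLCs at day 2 (SE 0.17, adjusted p = 0.0419), 0.48 at day 4 (adjusted p = 0.041) and 0.57 in parental +Dox cells (adjusted p = 0.0189). BP14A cells, at 11.46 and 11.68 on day 2 and 11.72 and 11.50 on day 4, were not called. Each of these 3 calls was lost with any 1 of the 4 arrays left out. With the mean of its 4 probe sets, 2 of which have means of 5.45 and 6.77, the differences were 0.09, 0.05 and 0.12, and none was called. Ndufv2, a core subunit with an iron-sulfur cluster, read 11.25 and 11.40 in Ck-PGCLCs at day 4, against 11.83 and 11.76 at day 2, and fell by 0.47 (SE 0.16, adjusted p = 0.0368). That call was lost with any 1 of the 4 arrays left out, with median centring and with the mean of all probe sets. Ndufv1, the core subunit that binds NADH, read 11.90 and 11.92 in Ck-PGCLCs at day 4, against 11.07 and 11.42 in 36 h EpiLCs, and rose by 0.67 (adjusted p = 0.0135). The Ndufv1 call was lost in 3 of its 4 fits without an array. Ndufa9, an accessory subunit, read 11.35 and 11.35 in BP14A cells at day 2, against 11.80 and 11.73 in Ck-PGCLCs at day 2, and fell by 0.42 (adjusted p = 0.0231). This Ndufa9 call was lost with any 1 of the 4 arrays left out and with median centring.

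In the earlier arrays Ndufa9 read 11.29 and 11.54 in 48 h EpiLCs and 11.28 and 11.33 in the epiblast, against 11.85 and 11.98 in 2i ESCs. It fell by 0.50 (adjusted p = 0.00622) in EpiLCs and by 0.61 (adjusted p = 0.000944) in the epiblast, and the epiblast call held with each array left out. Ndufb5, an accessory subunit of the membrane arm, read 11.57 and 11.70 in 36 h EpiLCs, against 12.25 and 12.19 in BP14A ESCs, and fell by 0.59 (SE 0.14, adjusted p = 0.00457). It also fell by 0.41 in the epiblast relative to 2i ESCs (adjusted p = 0.0357). Ndufa8 was the 1 subunit gene that rose in the epiblast relative to 2i ESCs, by 0.47 (adjusted p = 0.0453), and by 0.29 without array 2 of 2i ESCs (adjusted p = 0.345). That call was lost on the deposited values, with median centring, with the mean of all probe sets and without a filter.

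Complex III passes electrons from ubiquinol to cytochrome c. Uqcrc1 and Uqcrc2, its large core proteins, and Uqcrb, a small subunit, were the 3 of its 8 genes called in at least 1 comparison, against 71.2% of all genes tested. All their calls were in the earlier arrays. Uqcrc1 read 12.16 and 12.10 in E9.5 PGCs, against 12.74 and 12.81 in 2i ESCs. The fall of 0.64 (SE 0.11, adjusted p = 0.000174) held under every setting and with each array left out. Uqcrc1 also fell by 0.48 in the epiblast, at 12.28 and 12.31, relative to 2i ESCs (adjusted p = 0.00304), with each array left out too. In Ck-PGCLCs at day 6 it read 12.13 and 12.22, against 12.47 and 12.72 in 48 h EpiLCs, and fell by 0.42 (adjusted p = 0.00735). Uqcrc2 fell by 0.58 in 48 h EpiLCs relative to 2i ESCs (adjusted p = 0.0397; -0.35 without their array 1, adjusted p = 0.349), and Uqcrb by 0.39 in the epiblast (adjusted p = 0.0346). The Uqcrb call was lost on the deposited values, with median centring and with the mean of all probe sets.

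Comparison by comparison, the counts were small in both directions. In 36 h EpiLCs against BP14A ESCs, 1 subunit gene was higher (12.9% of all genes tested) and 4 were lower (11.8%). The median subunit gene differed by -0.21, against 0.05 over all genes, and 48 of 62 means were lower. Without the arrays of low Gapdh difference, which left 1 array in each group, 0 of the 5 calls remained. In 48 h EpiLCs against 2i ESCs, 0 genes were higher (12.5%) and 4 lower (11.9%), with a median of -0.03. In the E5.5 epiblast against 2i ESCs, 1 gene was higher (13.4%) and 9 lower (15.5%). There the median was -0.25, against -0.03 over all genes, and 49 of 62 means were lower. The genes share arrays, so these means are not independent. The median subunit gene read 11.42 and 11.84 on the 2 arrays of 2i ESCs, and 11.21 and 11.59 on those of the epiblast. Among the 9 was Cox4i1, the subunit IV isoform of most tissues, at 12.88 and 12.69 in the epiblast against 13.13 and 13.14 in 2i ESCs. In 48 h EpiLCs against the epiblast, Cox8c alone was higher (6.44%) and 0 genes were lower (3.12%). By a limma interaction contrast, no subunit gene was called for a change from ESCs to EpiLCs that differed between the new and the earlier arrays (0 higher, 0.394% of all genes tested, and 0 lower, 0.594%; 1 at an unadjusted p under 0.05).

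**Figure D5:**
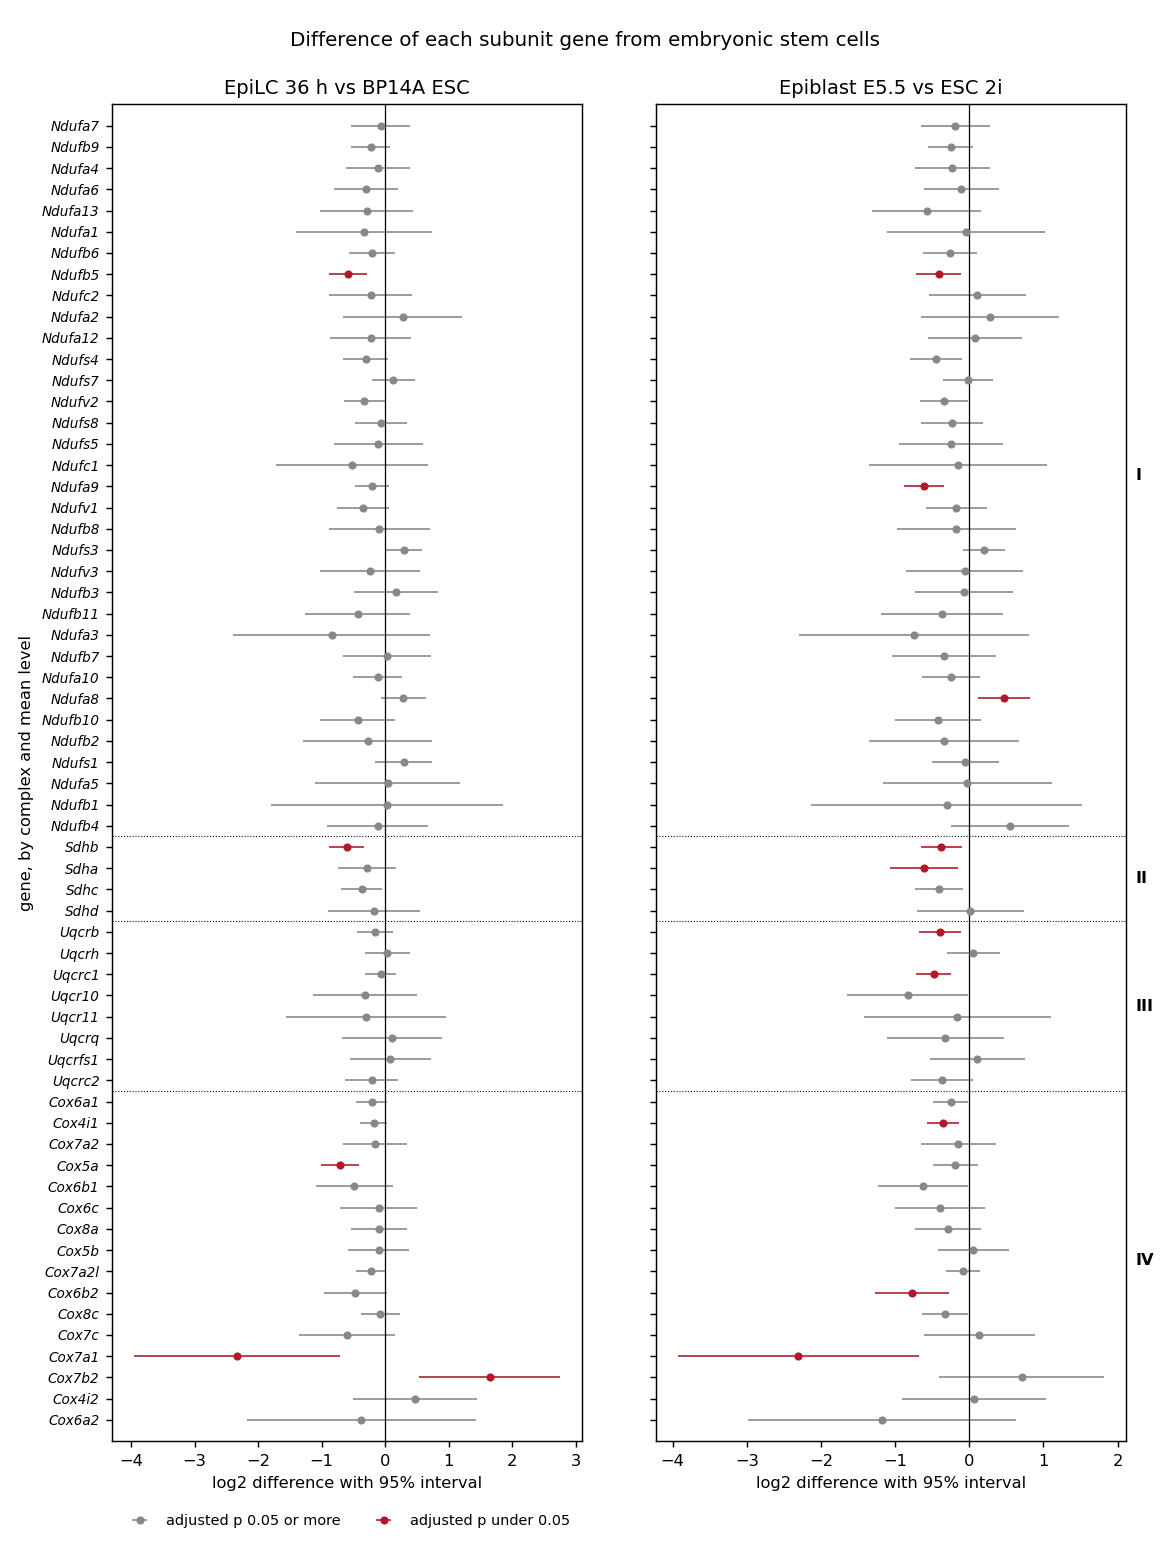
Points are log2 differences with 95% intervals for the 62 tested subunit genes, for 36 h EpiLCs minus BP14A ESCs (left) and the E5.5 epiblast minus 2i ESCs (right); red marks an adjusted p under 0.05. Most points lie left of 0 in both panels, and most intervals include 0.

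Along the cytokine route, 2 subunit genes were higher (13.4%) and 1 lower (11.9%) in Ck-PGCLCs at day 2 against 36 h EpiLCs, with a median of 0.18. Ck-PGCLCs at day 4 had 4 genes higher (14.9%) and 2 lower (13.8%) relative to the same EpiLCs, and the median was 0.14. Between the days, 0 genes were higher at day 4 (10.3%) and 1 was lower (11.1%). Ck-PGCLCs at day 2 also carried a mean of 9.93 and 9.94 over the 4 mesoderm markers, against 3.38 and 3.59 in EpiLCs, and of 8.22 and 8.26 over the 4 trophoblast markers, against 3.69 and 3.78. Cdx2 is in both lists, and 1 of the 4 trophoblast markers was dim (under 4.05) in these Ck-PGCLCs. The part of mesoderm-like or trophoblast-like cells in these counts was not tested. Along the factor route, BP14A cells at day 2 had 3 subunit genes higher (10.9%) and 1 lower (8.92%) than EpiLCs, and at day 4, 4 higher (13.5%) and 2 lower (11.7%). Both arrays of BP14A cells at day 4 were among those of low Gapdh difference. Between BP14A cells of day 4 and day 2, limma called 0 genes higher (1.19%) and 0 lower (1.11%), with 4 at an unadjusted p under 0.05. No subunit gene was called for a change between the days that differed between the cytokine and the factor route (0 higher, 6.76% of all genes, and 0 lower, 8.1%; 1 at an unadjusted p under 0.05).

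Set side by side at day 2, BP14A cells had 1 gene higher (10.6%) and 1 lower (10.4%) than Ck-PGCLCs, with a median of -0.19. At day 4, 0 were higher (6.11%) and 0 lower (5.21%), with 4 at an unadjusted p under 0.05. Parental +Dox cells had 4 higher (12%) and 2 lower (11.7%) than EpiLCs. Markers of other lineages were also higher in parental +Dox cells. The 4 mesoderm markers averaged 8.45 and 9.0 in parental +Dox cells, against 3.38 and 3.59 in EpiLCs. The 5 endoderm markers averaged 6.41 and 6.50 against 4.49 and 4.89, and 1 of them, Foxa2, 10.23 against 3.93. The 4 trophoblast markers averaged 5.81 and 6.81 against 3.69 and 3.78. Of these 4, 2 were dim (under 4.05) in parental +Dox cells, and Cdx2 is also in the mesoderm list. Sdhc was also called higher than in EpiLCs in Ck-PGCLCs at day 2, with the mesoderm markers at 9.93 and 9.94. The same held in BP14A cells, with these markers at 2.57 and 2.67 on day 2 and at 2.91 and 3.52 on day 4. The trophoblast markers averaged 5.43 and 5.62 in BP14A cells at day 4. The part of other lineages in these counts and in the rises of Sdhc was not tested. Ck-PGCLCs at day 2 had 0 higher (3.14%) and 0 lower (2.11%) than parental +Dox cells, with 1 at an unadjusted p under 0.05. In that comparison 51 of 62 means were higher, with a median of 0.14 against 0.02 over all genes. Genes read on the same arrays are not independent of each other. The 4 groups of factor-induced cells of day 2 were each compared with the same parental +Dox arrays. BP14A cells had 1 higher (12.2%) and 0 lower (10.9%), BP14 cells 1 higher (12.1%) and 1 lower (10.1%), P14A cells 1 higher (10.5%) and 0 lower (10.6%), and P14 cells 1 higher (11.4%) and 0 lower (10.3%). The gene higher was Cox7c in all 4, and the gene lower in BP14 cells was Sdhc (log2 difference -0.45, adjusted p = 0.0427; -0.28 without array 1 of BP14 cells, adjusted p = 0.377). In BP14A ESC +Dox cells against BP14A ESCs, 0 were higher (9.37%) and 1, Cox8c, was lower (6.74%).

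At the germ cell end, Ck-PGCLCs at day 6 had 1 gene higher (15.8%) and 3 lower (16%) than 48 h EpiLCs. Cox7a2l rose by 0.37 (adjusted p = 0.0147), and Ndufs8, a core iron-sulfur subunit of complex I, fell by 0.64 (adjusted p = 0.0174; -0.36 without array 2 of the PGCLCs, adjusted p = 0.272). E9.5 PGCs had 3 genes higher (14.8%) and 0 lower (12.7%) than the epiblast. Cox4i1 rose by 0.39 (adjusted p = 0.00628), at 13.17 and 13.18 in PGCs against 12.88 and 12.69 in the epiblast, Ndufb5 by 0.43 (adjusted p = 0.0317) and Ndufs4 by 0.58 (adjusted p = 0.0138; 0.12 with the mean of its probe sets). PGCs had 0 genes higher (15.9%) and 6 lower (16.1%) than 2i ESCs, among them Uqcrc1, Sdhc and Ndufv2. Ndufv2 fell by 0.54 (adjusted p = 0.0105), and by 0.29 without array 2 of PGCs (adjusted p = 0.214). Ck-PGCLCs at day 6 had 0 genes higher (6.89%) and 0 lower (5.48%) than PGCs, with 2 at an unadjusted p under 0.05. Embryonic red blood cell genes were at high levels on the PGC arrays, as given above, and their part in the PGC results was not tested.

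The neighbouring parts of the same machinery were read from lists of genes. ATP synthase, which uses the proton gradient, had 19 genes tested, of which 1 was called in at least 1 comparison, against 71.2% of all genes: Atp5o, of its stalk, fell by 0.51 in the epiblast relative to 2i ESCs (adjusted p = 0.0107). Among 8 respiratory chain genes outside the symbol families, Cyct, the testis form of cytochrome c, differed most. It read 9.78 and 9.80 in 36 h EpiLCs, against 7.40 and 7.76 in BP14A ESCs, and rose by 2.21 (SE 0.34, adjusted p = 5.8e-05). It rose in 48 h EpiLCs and in the epiblast relative to 2i ESCs as well, by 1.86 (adjusted p = 0.0004) and 1.42 (adjusted p = 0.00331). In parental +Dox cells, at 5.07 and 5.35, it was lower than in EpiLCs by a log2 difference of -4.58 (adjusted p = 9.09e-09). Etfb, which passes electrons from fatty acid oxidation towards ubiquinone, fell by 0.55 in 36 h EpiLCs relative to BP14A ESCs (adjusted p = 0.0212) and by 1.29 in the epiblast relative to 2i ESCs (adjusted p = 6.89e-06). The other lists were read in 36 h EpiLCs against BP14A ESCs, where 12.9% of all genes were higher and 11.8% lower. Of 14 complex I assembly factors, 2 were higher and 1 lower, and of 24 assembly factors of complexes II to IV, 1 was higher and 0 lower. Of 13 tricarboxylic acid cycle genes, 1 was higher and 1 lower; Idh2, mitochondrial isocitrate dehydrogenase, fell by 1.48 (adjusted p = 2.18e-05). Of 18 genes of glycolysis and lactate, 3 were higher and 5 lower. In Ck-PGCLCs at day 4 against 36 h EpiLCs, 3 of the 18 were higher (14.9% of all genes) and 11 lower (13.8%).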

How the data were processed

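RNA of 32 samples was measured on 1-colour Affymetrix mouse arrays. The series' design text states that cDNA was amplified by global PCR, whereas the labels' protocols give cRNA made from total RNA by the standard one-cycle assay. The authors deposited 1 log2 value per probe set and array, between 0 and 14.59; the software for summarisation and normalization is not given in the sources used here. Deposited array medians ran from 4.62 to 4.78, so arrays were quantile normalized, with the deposited values and median centring as alternatives. The number of arrays limits the precision. Of 45101 probe sets, 64 controls were left out, and 34958 had 1 gene symbol in GEO's platform annotation. Each of 18193 genes took its brightest probe set by the mean over all arrays. A gene was tested if 1 group mean reached the 40th percentile (4.05), which left 15497.

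A single fit of limma 3.58.1 covered all 32 arrays, with 1 coefficient per group, which leaves 16 residual degrees of freedom; tables were read with data.table (version 1.17.8) in R 4.3.3. Comparisons stayed within the new or the earlier arrays, and p-values were adjusted over all genes tested. The fit was tested on simulated data with independent noise and 1 spread per gene on all 32 arrays. The simulation held no effect of the array number and no wider spread on the earlier arrays, so it does not cover these features. Subunit genes named with statistics were, among those called, the 4 strongest rises and the 4 strongest falls at most in a comparison, and 2 of each at most in a complex; any may be named with its levels, and isoform pairs always were considered. Other lists gave 2 of each at most. The symbol rule, the gene lists and the tests were chosen with earlier results of these data known. Other settings were the filter (none, 60th percentile), the mean of all probe sets, trend and robust options, fewer arrays, a replicate block and leaving out each array. Motifs were matched to RefSeq windows by exact letters.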

Additional observations from a re-analysis of the deposited data

How the results depend on the processing

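No called difference changed sign under any setting tried. Of 67 calls 8 held under every setting that could be fitted and with each array left out. Counts of called subunit genes moved by more than 1.5 times as follows. On the deposited values the counts were 0 for 48 h EpiLCs against the epiblast, P14A against parental +Dox, BP14A ESC +Dox against BP14A ESCs, 1 for BP14A day 2 against Ck-PGCLCs day 2, BP14A day 4 against Ck-PGCLCs day 4, BP14 against parental +Dox. With median centring the counts were 0 for Ck-PGCLCs day 4 against Ck-PGCLCs day 2, P14A against parental +Dox, 1 for BP14A day 2 against Ck-PGCLCs day 2, BP14A day 4 against Ck-PGCLCs day 4, BP14 against parental +Dox, 2 for P14 against parental +Dox, 3 for Ck-PGCLCs day 4 against 36 h EpiLCs. With all probe sets averaged the counts were 0 for 48 h EpiLCs against the epiblast, Ck-PGCLCs day 4 against Ck-PGCLCs day 2, BP14A day 2 against parental +Dox, BP14A ESC +Dox against BP14A ESCs, 1 for Ck-PGCLCs day 2 against 36 h EpiLCs, BP14 against parental +Dox, PGCs against the epiblast, PGCs against 2i ESCs, 3 for Ck-PGCLCs day 4 against 36 h EpiLCs, 6 for the epiblast against 2i ESCs. Without a filter the counts were 1 for BP14 against parental +Dox, 3 for Ck-PGCLCs day 4 against 36 h EpiLCs. With the filter at the 60th percentile the counts were 1 for BP14A day 4 against Ck-PGCLCs day 4, 2 for 48 h EpiLCs against the epiblast, Ck-PGCLCs day 4 against Ck-PGCLCs day 2, P14A against parental +Dox, P14 against parental +Dox, BP14A ESC +Dox against BP14A ESCs, 4 for BP14 against parental +Dox, 8 for 48 h EpiLCs against 2i ESCs. With trend and robust options the counts were 1 for the difference between routes, 2 for Ck-PGCLCs day 4 against Ck-PGCLCs day 2, BP14A day 4 against Ck-PGCLCs day 4, BP14A day 2 against parental +Dox, 3 for 48 h EpiLCs against the epiblast, P14A against parental +Dox, P14 against parental +Dox, BP14A ESC +Dox against BP14A ESCs, 4 for BP14 against parental +Dox, 5 for Ck-PGCLCs day 2 against 36 h EpiLCs, PGCs against the epiblast, 8 for 48 h EpiLCs against 2i ESCs, 14 for any difference among the new groups. With a replicate block the counts were 1 for Ck-PGCLCs day 6 against PGCs, the difference between routes, 2 for BP14A day 4 against Ck-PGCLCs day 4, 3 for Ck-PGCLCs day 4 against Ck-PGCLCs day 2, P14A against parental +Dox, 4 for P14 against parental +Dox, BP14A ESC +Dox against BP14A ESCs, 5 for 48 h EpiLCs against the epiblast, BP14A day 2 against Ck-PGCLCs day 2, BP14A day 2 against parental +Dox, 8 for BP14A day 2 against 36 h EpiLCs, BP14 against parental +Dox, 9 for Ck-PGCLCs day 2 against 36 h EpiLCs, 10 for 48 h EpiLCs against 2i ESCs, PGCs against 2i ESCs, 11 for Ck-PGCLCs day 4 against 36 h EpiLCs, PGCs against the epiblast, 12 for BP14A day 4 against 36 h EpiLCs, Ck-PGCLCs day 6 against 48 h EpiLCs, 18 for the epiblast against 2i ESCs, 21 for any difference among the new groups, 24 for any difference among the earlier groups. With only the arrays of the same part fitted the counts were 0 for 48 h EpiLCs against 2i ESCs, the epiblast against 2i ESCs, 48 h EpiLCs against the epiblast, PGCs against the epiblast, 1 for BP14A day 4 against Ck-PGCLCs day 4, Ck-PGCLCs day 6 against 48 h EpiLCs, PGCs against 2i ESCs, the difference between routes, any difference among the earlier groups, 2 for P14A against parental +Dox, 3 for Ck-PGCLCs day 4 against Ck-PGCLCs day 2, BP14A day 2 against parental +Dox, P14 against parental +Dox, 4 for BP14A day 2 against Ck-PGCLCs day 2, BP14 against parental +Dox, 7 for BP14A day 2 against 36 h EpiLCs, 8 for 36 h EpiLCs against BP14A ESCs, Ck-PGCLCs day 2 against 36 h EpiLCs, 11 for Ck-PGCLCs day 4 against 36 h EpiLCs, BP14A day 4 against 36 h EpiLCs, 18 for any difference among the new groups. Without the arrays of low Gapdh difference the counts were 0 for 36 h EpiLCs against BP14A ESCs, BP14 against parental +Dox, BP14A ESC +Dox against BP14A ESCs, 1 for Ck-PGCLCs day 2 against 36 h EpiLCs, Ck-PGCLCs day 4 against 36 h EpiLCs, 2 for BP14A day 2 against 36 h EpiLCs, 3 for parental +Dox against 36 h EpiLCs.

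Leaving out 1 array at a time gave counts of 0 to 0 for Ck-PGCLCs day 4 against Ck-PGCLCs day 2, 0 to 1 for BP14A day 2 against Ck-PGCLCs day 2, BP14A day 2 against parental +Dox, P14A against parental +Dox, P14 against parental +Dox, BP14A ESC +Dox against BP14A ESCs, 0 to 2 for 48 h EpiLCs against the epiblast, Ck-PGCLCs day 6 against PGCs, 0 to 5 for PGCs against the epiblast, 1 to 2 for Ck-PGCLCs day 2 against 36 h EpiLCs, 1 to 3 for Ck-PGCLCs day 4 against 36 h EpiLCs, 1 to 4 for BP14 against parental +Dox, 1 to 5 for 48 h EpiLCs against 2i ESCs, 2 to 3 for 36 h EpiLCs against BP14A ESCs, BP14A day 2 against 36 h EpiLCs, 2 to 4 for BP14A day 4 against 36 h EpiLCs, PGCs against 2i ESCs, 2 to 5 for parental +Dox against 36 h EpiLCs, 2 to 16 for Ck-PGCLCs day 6 against 48 h EpiLCs, 4 to 8 for any difference among the new groups, 9 to 20 for any difference among the earlier groups. The lone array was taken to vary like the other groups. Replicate numbers are shared by the groups, with 2 pairs in each comparison. Deviations of arrays of the same number correlated at r = -0.09 to 0.46, over 0.1 in 16 of 23 comparisons and at 0.27 to 0.46 in the 7 among earlier arrays. No label ties a number to a shared animal, culture or day, and the fit without the block was kept. Whether arrays of the same number were paired was not tested. With the replicate block, the calls over all comparisons were 156 in place of 67, and none of the 67 was lost; among the earlier arrays they were 67 in place of 28. The cause was not tested for any of these changes. Dim genes and groups of 2 arrays limit what can be called.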
